A study of Homo sapiens with 6 samples.

Results

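Collagen, laminin and integrin genes were examined in 92.1 cells, an established line from a human melanoma of the uvea, the pigmented layer of the eye. RNA sequencing libraries were made from 3 LBH589 samples, which received 0.1 µM of the drug for 24 h, and from 3 DMSO samples, which received the solvent for the same time. LBH589 (panobinostat) inhibits histone deacetylases, the enzymes that take acetyl groups off histones and other proteins. All 6 samples came from this line, and no label names clones, batches or separate cultures; the p-values therefore reflect how far these samples spread, which may be technical variation only. Members were taken by symbol: COL, a number, A and a number for collagen chains; LAMA, LAMB or LAMC and a digit for laminin chains; ITGA or ITGB and a number or letter for integrin chains. The rule found 39 of the 12010 named genes, 16 collagen, 9 laminin and 14 integrin genes, with 71 listed transcripts between them. The annotation holds 83 coding genes with such symbols, and the other 44, among them COL1A2, COL3A1, COL6A3, LAMA2, ITGA4 and ITGB4, had no transcript in the files and were not analysed here.

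Collagens are secreted triple helices of alpha chains. Type IV collagen and laminins, which are trimers of an alpha, a beta and a gamma chain, form the networks of basement membranes, while types I, V and XII belong to fibrils and type VI forms beaded microfilaments. Integrins are cell surface receptors of an alpha and a beta chain that bind these proteins outside the cell and the actin cytoskeleton inside it. The beta chain of ITGB1 pairs with most of the alpha chains listed here and that of ITGB3 with the alpha chain of ITGAV. Melanocytes of the epidermis rest on or near a basement membrane, and integrin use is known to differ between melanocytes and melanoma cells.

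The files give FPKM, a level that divides the fragments of a transcript by its length and by the mapped fragments of the library, which was summed over the listed transcripts of a gene. Summed FPKM was 355148 to 367222 per LBH589 library and 397174 to 422630 per DMSO library, and no counts are given, so the absolute depth is unknown. Each log2 fold change below subtracts the DMSO mean of log2(FPKM + 1) from the LBH589 mean, which understates the change of low genes, and p-values from limma were adjusted over all 11520 tested genes. The median log2 fold change over the tested genes was 0.22 with library sums made equal, against 0.08 with FPKM as deposited. Mitochondrial genes held 35.2 to 37.4% of the FPKM in LBH589 libraries and 35.9 to 45.8% in DMSO libraries, and the part of these differences in the results was not tested. Of 8 melanocytic markers all were listed, and 6 fell, with a summed level of 720.9 to 775.8 FPKM in LBH589 and 2531 to 2672 FPKM in DMSO. Markers of other cells were low or not listed: 0 of 6 endothelial, 2 of 6 fibroblast (1.74 to 2.12 FPKM summed in LBH589, 1.04 to 1.36 FPKM in DMSO), 3 of 7 epithelial (8.92 to 11.8 and 5.52 to 8.57 FPKM) and 1 of 6 immune markers (6.69 to 12.4 and 11.6 to 16.8 FPKM). In such bulk samples, fewer cells of a kind and less RNA per cell cannot be told apart.

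Members moved in both directions. Of 39 members, 33 reached the mean of 0.5 FPKM over the 6 libraries needed for the test. Of these, 12 rose (36.4%), against 27.2% of all tested genes, and 8 fell (24.2%), against 21.6% of all tested genes, while 13 were not called. Taken in either direction, 20 members were called (60.6%), against 48.8% of all tested genes. The counts were 14 rises and 7 falls with equal library sums, where 3730 of all 11520 tested genes rose and 2009 fell. After quantile normalization they were 10 and 10, with 2889 and 2701 among all tested genes. By family, 5 of 13 tested collagen genes rose and 3 fell, 3 of 9 laminin genes rose and 2 fell, and 4 of 11 integrin genes rose and 3 fell. Of the 12 rises, 7 had a DMSO mean below 0.5 FPKM (COL12A1, COL25A1, COL5A3, LAMB3, ITGA1, ITGAX and ITGB3), so they could enter the test through their LBH589 values alone, and their number is not support for a general rise. All 3 values of LBH589 lay above all 3 of DMSO in 15 tested members (33% of all tested genes did so) and below them in 9 (26.5% of all tested genes), 24 in all (59.5% of all tested genes in either direction). Over the tested members the median log2 fold change was 0.21, against 0.08 over all of the genes.

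**Figure D1:**
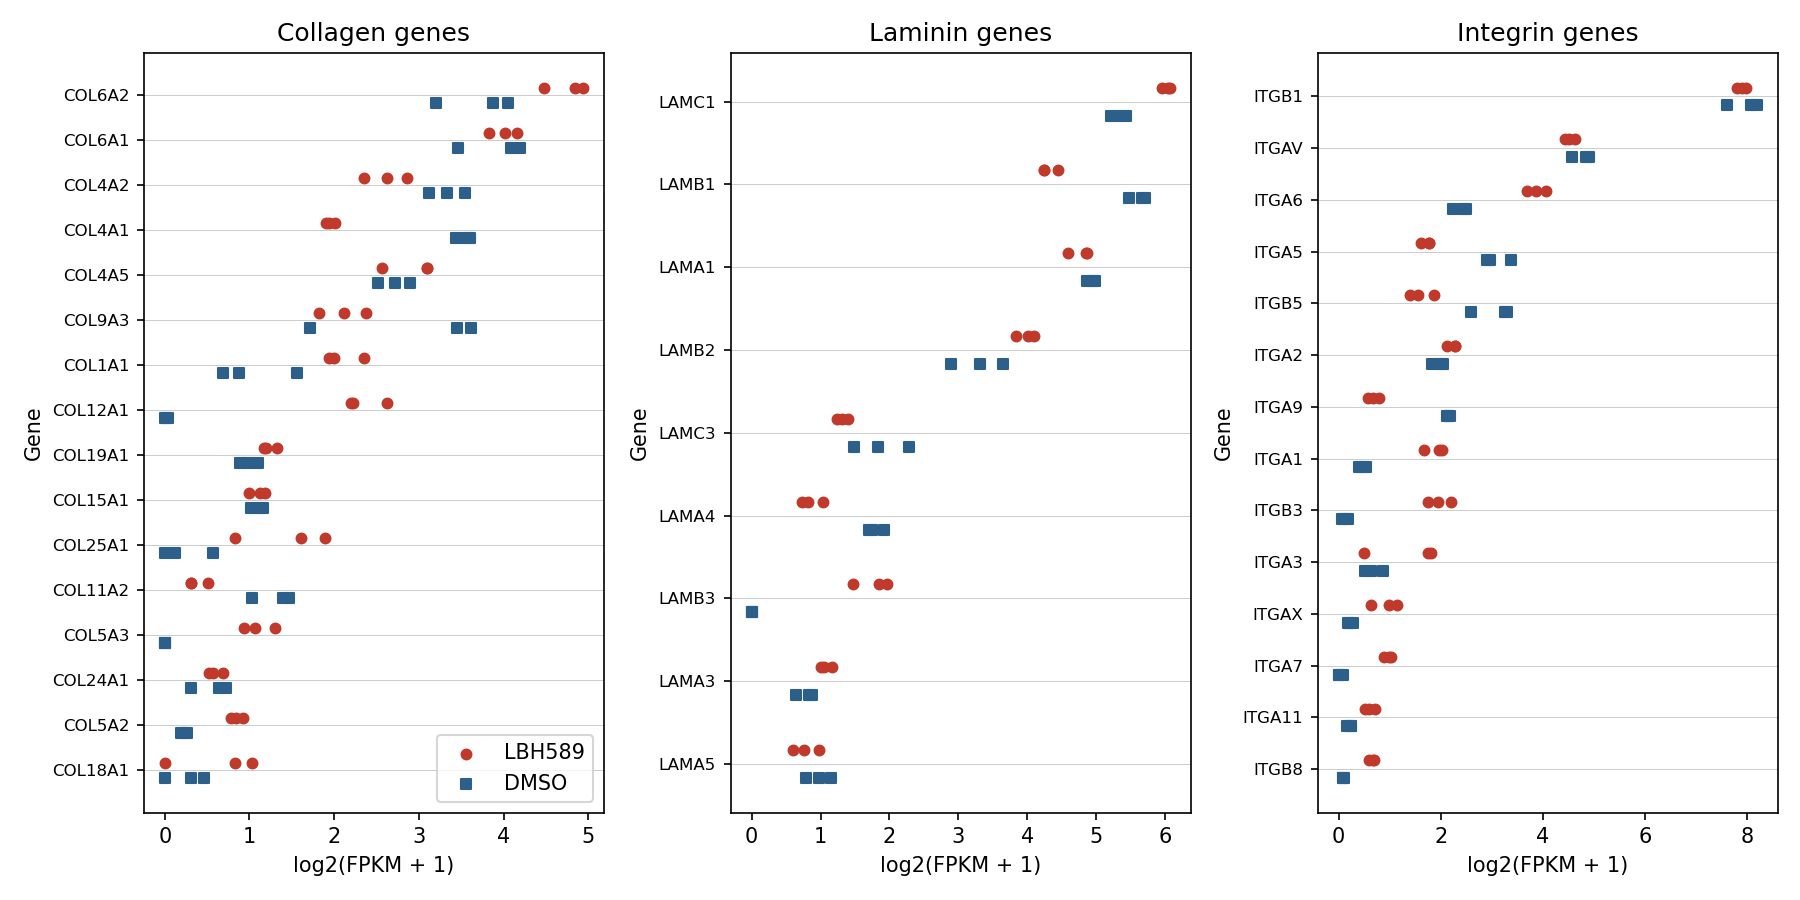
Level of each listed collagen, laminin and integrin gene in every library, as log2(FPKM + 1) on the horizontal axis, with LBH589 (circles) above DMSO (squares) in each row and genes ordered by their mean. ITGB1 stands highest and its groups overlap, while the groups of COL4A1, LAMB1, LAMC1, ITGA5, ITGA6 and ITGA9 lie apart.

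**Figure D2:**
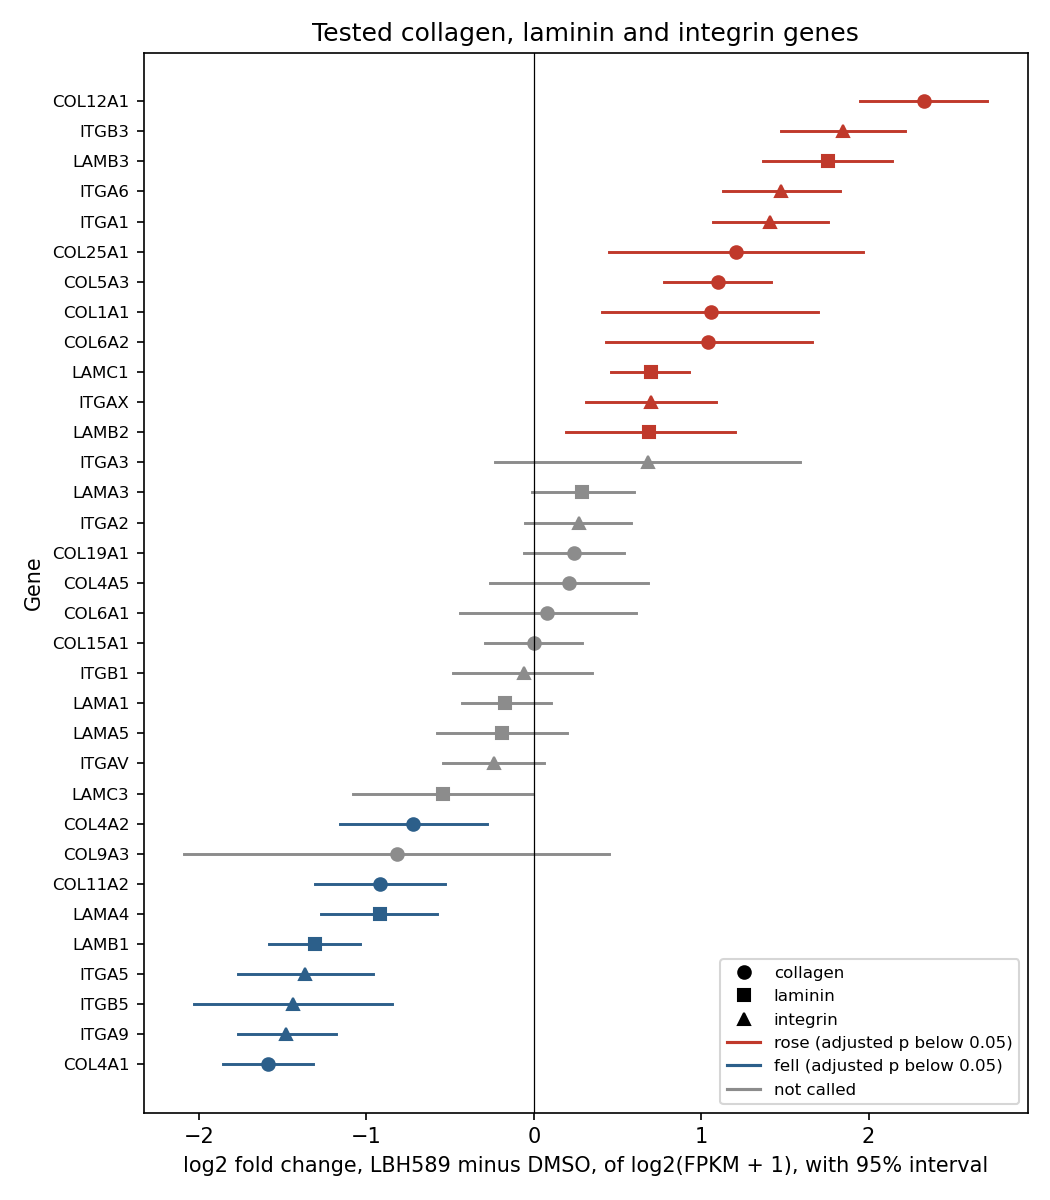
Log2 fold change (LBH589 minus DMSO, of log2(FPKM + 1)) of the 33 tested members, with 95% intervals from the fit over all genes; circles are collagen, squares laminin and triangles integrin genes. The changes run from 2.33 for COL12A1 to -1.59 for COL4A1, and members of each family stand at both ends.

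Of the 3 type IV collagen chains listed, COL4A1 and COL4A2 fell and COL4A5 was not called. COL4A1, which encodes a chain of the common type IV trimer, was at 2.83, 3.02 and 2.73 FPKM in the LBH589 libraries and at 11.2, 10.9 and 9.86 FPKM in the DMSO libraries. Every LBH589 library was thus far below every DMSO library, and COL4A1 fell (log2 fold change -1.59, SE 0.11, adjusted p = 1.29e-04). COL4A2, its partner in the same trimer, was at 4.12, 5.15 and 6.23 FPKM in LBH589 and 10.7, 9.06 and 7.66 FPKM in DMSO. The groups did not overlap, but the gap was small and the fall was less firm (log2 fold change -0.72, SE 0.18, adjusted p = 0.0186): the call ended with equal library sums (adjusted p = 0.0536), without DMSO replicate 2 (0.0535) and without LBH589 replicate 1 or 2 (0.0564 and 0.0552). COL4A5, a chain of another type IV trimer that is encoded on the X chromosome, was at 6.67 ± 1.51 FPKM in LBH589 and 5.58 ± 0.852 FPKM in DMSO (SD, n = 3 each) and was not called, with a 95% interval of the log2 fold change between -0.26 and 0.68.

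The ratio of COL4A1 to COL4A2 within a library does not depend on how libraries are scaled. It was 0.687, 0.586 and 0.4385 in LBH589 and 1.045, 1.20 and 1.29 in DMSO. The order of the chains was therefore turned in each LBH589 library, with COL4A2 the higher (two-sided exact permutation p = 0.1 for the log2 ratio, the smallest that 3 against 3 samples allow; the same p was found for each of the 6 ratios computed, and these pairs were chosen after the levels were seen). COL4A1 and COL4A2 are neighbours, read in opposite directions from starts that lie 127 bases apart in the RefSeq annotation of GRCh38.p14. One window of 300 bases around the COL4A2 start, on chromosome 13, holds both starts and is shown because both chains were lower in LBH589 although to unequal extents. It is given 5′ to 3′ on the + strand, chr13:110307034-110307333, with a CCAAT match and a GC box match (GGGCGG) in capitals; COL4A1 starts at base 124, reading backwards, and COL4A2 at base 251.
COL4A1 and COL4A2 shared promoter: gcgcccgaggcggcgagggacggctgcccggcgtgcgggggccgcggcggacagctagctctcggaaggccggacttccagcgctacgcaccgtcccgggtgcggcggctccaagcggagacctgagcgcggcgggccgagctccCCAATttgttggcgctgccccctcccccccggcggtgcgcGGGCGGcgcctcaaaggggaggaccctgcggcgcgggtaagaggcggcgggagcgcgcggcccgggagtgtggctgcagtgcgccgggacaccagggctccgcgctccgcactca

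Type VI collagen, whose microfilaments surround cells, showed the other case of neighbouring genes whose levels parted. COL6A2 was at 21.2, 27.7 and 29.5 FPKM in LBH589 and 15.5, 13.7 and 8.18 FPKM in DMSO. All LBH589 values were higher, and COL6A2 rose (log2 fold change 1.04, SE 0.25, adjusted p = 0.0157). COL6A1, which lies next to it and encodes another chain of the trimer, was at 13.2, 16.8 and 15.1 FPKM in LBH589 and 17.3, 15.95 and 10.0 FPKM in DMSO, so that the groups overlapped (95% interval of the log2 fold change -0.44 to 0.61). The ratio of COL6A2 to COL6A1 was 1.61, 1.65 and 1.95 in LBH589 libraries and 0.897, 0.857 and 0.815 in DMSO libraries. The COL6A2 call depends on the sum over its 4 listed transcripts: with its most abundant transcript alone the log2 fold change was 0.24 (adjusted p = 0.727). It also ended without LBH589 replicate 2 (adjusted p = 0.0535) or 3 (0.0568).

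Collagen chains of types I, V and XII were each below 2 FPKM in every DMSO library. COL12A1, which encodes a fibril-associated collagen, had the largest rise of the members (log2 fold change 2.33, SE 0.15, adjusted p = 1.03e-04). It was at 3.68, 3.58 and 5.18 FPKM in LBH589 and at 0.0245, 0.00591 and 0.00838 FPKM in DMSO, where it was close to 0 in every library. COL1A1, which encodes the main chain of type I collagen, was at 4.12, 2.83 and 2.995 FPKM in LBH589 and 1.96, 0.834 and 0.606 FPKM in DMSO. It rose (log2 fold change 1.06, SE 0.26, adjusted p = 0.0181), although not without DMSO replicate 2 (0.0587) or LBH589 replicate 1 (0.0586), while its partner gene COL1A2 was not analysed here. COL5A3, a chain of type V collagen, was listed at 0.911, 1.09 and 1.455 FPKM in LBH589 and at 0 in every DMSO library (adjusted p = 9.45e-04). COL5A2, another type V chain, stayed below the tested level at 0.793, 0.891 and 0.720 FPKM in LBH589 and 0.171, 0.138 and 0.201 FPKM in DMSO, and its groups did not overlap. COL5A2 was listed through its LBH589 mean, since every listed transcript had a group mean of at least 0.5 FPKM. The lack of overlap is therefore not support for a rise.

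Other collagen genes were low or variable. COL25A1, which encodes a membrane collagen, was at 2.06, 2.72 and 0.772 FPKM in LBH589 and was listed at 0.0877, 0.485 and 0 FPKM in DMSO. Its call (log2 fold change 1.21, adjusted p = 0.0199) ended after quantile normalization (0.053), without DMSO replicate 1 (0.0592) or 3 (0.0598) and without LBH589 replicate 1 (0.0611) or 2 (0.0549). COL11A2, a chain of type XI collagen of cartilage, fell to 0.299 ± 0.110 FPKM in LBH589, against 1.47 ± 0.379 FPKM in DMSO (SD, n = 3 each; log2 fold change -0.92, adjusted p = 0.00409). COL9A3, a chain of type IX collagen, was at 2.54, 4.19 and 3.32 FPKM in LBH589 and 11.3, 9.91 and 2.275 FPKM in DMSO. DMSO replicate 3 lay below all LBH589 libraries, and COL9A3 was not called (adjusted p = 0.24), whereas without that library it fell (log2 fold change -1.43, adjusted p = 0.00436). COL15A1 and COL19A1, both listed between 0.846 and 1.52 FPKM in every library, were not called, and COL18A1 and COL24A1 were below the tested level, with overlapping groups.

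With FPKM as deposited, laminin genes had overlapping sums in both groups while single chains rose or fell. The summed FPKM of the 9 laminin genes was 132.8, 135.5 and 124.1 in LBH589 and 127.3, 136.7 and 135.5 in DMSO, so the groups overlapped. This overlap depends on scaling, because the library sums were lower in LBH589. Of the summed FPKM of a library, all 39 members held 0.1337, 0.1438 and 0.1343% in LBH589. They held 0.1137, 0.1256 and 0.1283% in DMSO, without overlap. LAMB1, the common beta chain, was at 20.9, 17.95 and 17.9 FPKM in LBH589 and 43.7, 51.5 and 50.02 FPKM in DMSO. Every LBH589 library was below every DMSO library, and LAMB1 fell (log2 fold change -1.31, SE 0.11, adjusted p = 2.53e-04). LAMC1, the common gamma chain and the laminin gene with the highest level in LBH589, was at 64.85, 66.1 and 61.4 FPKM in LBH589 and 36.0, 39.4 and 42.3 FPKM in DMSO. It rose (log2 fold change 0.70, SE 0.10, adjusted p = 0.00161), and the groups were well separated. LAMB2, the beta chain that can stand in for LAMB1 in a trimer, was at 13.3, 16.1 and 15.1 FPKM in LBH589 and 11.6, 8.96 and 6.45 FPKM in DMSO. LAMB2 rose (log2 fold change 0.69, SE 0.21, adjusted p = 0.0342), but it did not pass with its most abundant transcript (0.503), without DMSO replicate 2 (0.079) or 3 (0.0525) or without LBH589 replicate 1 (0.0592), 2 (0.103) or 3 (0.0936).

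Within libraries, LAMC1 stood 3.10, 3.68 and 3.43 times as high as LAMB1 in LBH589 and 0.824, 0.765 and 0.845 times as high in DMSO. LAMB2 stood at 0.634, 0.898 and 0.847 of LAMB1 in LBH589 and at 0.265, 0.174 and 0.129 of it in DMSO. The levels of both beta chains were therefore closer to each other in every LBH589 library, with LAMB1 still the higher. The promoters of LAMB1 and LAMC1 are shown because these chains of one trimer moved in opposite directions. Each runs 5′ to 3′ along its gene, from 250 bases before the start to 50 after it (RefSeq, GRCh38.p14), and capitals mark GC box matches, GGGCGG on either strand. LAMB1 is at chr7:108003112-108003411 on the - strand and LAMC1 at chr1:183023170-183023469 on the + strand.
LAMB1 promoter: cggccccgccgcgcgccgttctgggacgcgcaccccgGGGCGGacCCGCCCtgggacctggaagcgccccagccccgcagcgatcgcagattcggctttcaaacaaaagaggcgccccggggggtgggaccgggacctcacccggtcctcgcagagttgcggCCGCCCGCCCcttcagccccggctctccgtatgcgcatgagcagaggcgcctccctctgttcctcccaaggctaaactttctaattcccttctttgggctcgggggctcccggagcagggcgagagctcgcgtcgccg
LAMC1 promoter: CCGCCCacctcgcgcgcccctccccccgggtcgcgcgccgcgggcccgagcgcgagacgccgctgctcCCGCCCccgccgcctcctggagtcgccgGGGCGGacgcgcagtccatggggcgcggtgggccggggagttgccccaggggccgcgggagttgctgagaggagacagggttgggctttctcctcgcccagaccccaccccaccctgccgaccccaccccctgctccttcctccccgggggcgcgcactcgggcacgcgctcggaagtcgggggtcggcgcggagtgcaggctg

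The window of LAMB1, which fell, held 4 GC box matches and that of LAMC1, which rose, held 3. Over all members with a RefSeq window (28 genes, 40 windows, several genes having more than 1 start), 28 windows (70%) held a GC box. Of all 35116 promoter windows of the same length, 45% did. Some member windows overlap, as those of COL4A1 and COL4A2 do. The letters CG stood at a median of 18.5 places in member windows and 14 in all promoter windows. A GC box stood in 10 of 12 windows of genes that rose, 9 of 12 of genes that fell and 5 of 10 of tested genes that were not called. A CCAAT match stood in 10 of the 40 member windows (25%), against 34.6% of all windows, and a TATAAA match in 4, against 11.5% of all windows. Member windows belong to genes listed in these cells, whereas all promoter windows were taken whatever the level of their genes. The shares therefore compare unlike sets and do not show a trait particular to these families. These letter matches are descriptions of the windows and not binding sites.

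LAMA1, the alpha chain with the highest level, was at 28.1, 27.8 and 23.2 FPKM in LBH589 and 28.1, 30.1 and 30.7 FPKM in DMSO, overlapping and not called (95% interval of the log2 fold change -0.43 to 0.10). LAMA4, the alpha chain of laminins of vessels and muscle, was at 0.754, 1.06 and 0.660 FPKM in LBH589 and 2.24, 2.34 and 2.78 FPKM in DMSO. It fell in all LBH589 libraries (log2 fold change -0.92, SE 0.14, adjusted p = 0.00257). LAMB3, a chain of the laminin of epithelial anchoring structures, was at 1.77, 2.90 and 2.59 FPKM in LBH589, whereas in DMSO it was listed at 0.00296 FPKM in replicate 1 and at 0 in replicates 2 and 3 (log2 fold change 1.76, SE 0.16, adjusted p = 3.19e-04). LAMA3, the alpha chain of that laminin, was at 1.11 ± 0.122 FPKM in LBH589 and 0.725 ± 0.144 FPKM in DMSO (SD, n = 3 each) and did not pass (adjusted p = 0.0983), although it did with equal library sums (0.0415). LAMC3, another gamma chain, was at 1.498 ± 0.134 FPKM in LBH589 and 2.73 ± 1.04 FPKM in DMSO and did not pass (adjusted p = 0.0872), but did without DMSO replicate 3 (0.0253) and after quantile normalization (0.0153). LAMA5 was at 0.727 ± 0.231 and 0.9695 ± 0.252 FPKM in LBH589 and DMSO and passed after quantile normalization alone (adjusted p = 0.037).

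**Figure D3:**
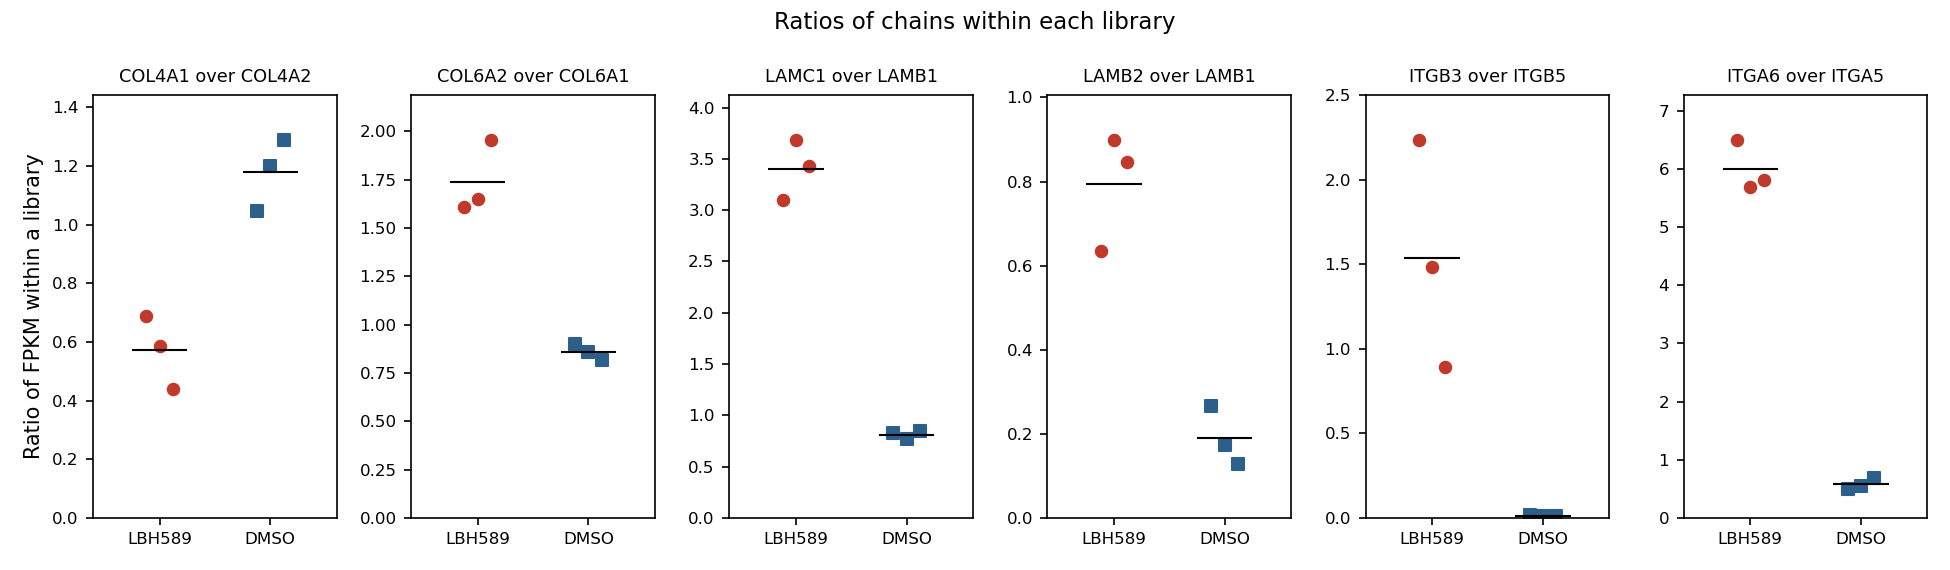
Ratio of the FPKM of a pair of chains within each library (vertical axis, starting at 0), LBH589 left of DMSO, with a line at the group mean. The groups do not overlap in any of the 6 ratios: COL4A1 over COL4A2 is lower in LBH589 and the other 5 are higher.

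Of the integrin genes, the beta chain ITGB1 made up most of the signal and was not called. ITGB1 was at 237.5, 249.1 and 220.3 FPKM in LBH589 and 193.0, 266.3 and 289.1 FPKM in DMSO. DMSO replicate 1 lay below and the other DMSO libraries above the whole LBH589 range (95% interval of the log2 fold change -0.48 to 0.35). It held 81.1 ± 0.262% of the summed integrin FPKM in LBH589 and 82.0 ± 3.21% in DMSO (SD, n = 3 each). The alpha chains together came to 50.2, 51.5 and 46.2 FPKM in LBH589 and 44.4, 45.8 and 47.45 FPKM in DMSO, again overlapping. This overlap, too, is of FPKM as deposited and depends on scaling. Library sums were 355148 to 367222 FPKM in LBH589 and 397174 to 422630 FPKM in DMSO.

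Among the partners of ITGB1, a laminin receptor chain and a collagen receptor chain rose and a fibronectin receptor chain fell. ITGA6, an alpha chain of laminin receptors, was at 15.7, 13.6 and 11.9 FPKM in LBH589 and 4.63, 3.74 and 4.47 FPKM in DMSO. Its LBH589 values were all higher (log2 fold change 1.48, SE 0.14, adjusted p = 4.07e-04). ITGA1, an alpha chain of collagen receptors, was at 3.06, 2.91 and 2.17 FPKM in LBH589 and 0.387, 0.458 and 0.313 FPKM in DMSO and rose (log2 fold change 1.41, SE 0.14, adjusted p = 4.92e-04). ITGA5, the alpha chain of the classical fibronectin receptor, was at 2.42, 2.40 and 2.05 FPKM in LBH589 and 9.41, 6.79 and 6.52 FPKM in DMSO. It fell well clear of the DMSO range (log2 fold change -1.37, SE 0.17, adjusted p = 1.00e-03). ITGA9, an alpha chain that binds tenascin and other ligands, was at 0.720, 0.489 and 0.586 FPKM in LBH589 and 3.52, 3.43 and 3.36 FPKM in DMSO, and fell (log2 fold change -1.48, SE 0.12, adjusted p = 2.13e-04).

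The order of ITGA6 and ITGA5 differed between the groups: their ratio was 6.49, 5.69 and 5.81 in LBH589 libraries and 0.492, 0.552 and 0.686 in DMSO libraries. ITGA2, the alpha chain of another collagen receptor, was at 3.69 ± 0.309 FPKM in LBH589 and 2.90 ± 0.305 FPKM in DMSO (SD, n = 3 each) and passed with equal library sums (adjusted p = 0.0391) but not with FPKM as deposited (0.143). ITGA3, an alpha chain of laminin receptors, was at 0.405, 2.36 and 2.52 FPKM in LBH589 and 0.817, 0.437 and 0.545 FPKM in DMSO. In this sum LBH589 replicate 1 was the lowest of all 6 libraries. ITGA3 was not called (adjusted p = 0.182) unless that library was left out (0.0057) or the most abundant ITGA3 transcript was used (0.0476). That transcript was at 0.405, 2.36 and 2.52 FPKM in LBH589 and at 0, 0 and 0.0567 FPKM in DMSO. Most of the DMSO level came from a fragment of 827 bases, listed at 0 in every LBH589 library.

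Of the beta chains that pair with ITGAV, one rose and another fell. ITGAV itself was at 21.7, 23.8 and 20.7 FPKM in LBH589 and 22.6, 27.7 and 28.8 FPKM in DMSO, overlapping and not called (adjusted p = 0.154), although it was called lower without DMSO replicate 1 (log2 fold change -0.34, adjusted p = 0.0321). ITGB3 was at 3.62, 2.87 and 2.38 FPKM in LBH589 and 0.132, 0.0859 and 0.0492 FPKM in DMSO, and rose (log2 fold change 1.85, SE 0.15, adjusted p = 2.12e-04). ITGB5, a beta chain of vitronectin receptors, was at 1.62, 1.93 and 2.66 FPKM in LBH589 and 8.52, 8.77 and 5.02 FPKM in DMSO, and fell (log2 fold change -1.44, SE 0.24, adjusted p = 0.00386). With its most abundant transcript alone the fall was smaller (log2 fold change -0.87, adjusted p = 0.0163). Fragments of 1202 and 789 bases averaged 2.97 and 0.874 FPKM in DMSO. Both were listed at 0 in LBH589 replicates 1 and 2. The ratio of ITGB3 to ITGB5, each summed over its transcripts, was 2.23, 1.485 and 0.893 in LBH589 and 0.0155, 0.00979 and 0.00980 in DMSO. ITGB8, a further partner of ITGAV, was below the tested level at 0.507, 0.617 and 0.605 FPKM in LBH589 and 0.0628, 0.0674 and 0.0754 FPKM in DMSO, without overlap. ITGB8 was listed through its LBH589 mean, since every listed transcript had a group mean of at least 0.5 FPKM. Its lack of overlap is therefore not support for a rise.

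Among integrin chains at low levels, ITGAX, an alpha chain known from myeloid cells, was at 0.992, 0.5501 and 1.22 FPKM in LBH589 and 0.216, 0.141 and 0.152 FPKM in DMSO and rose (log2 fold change 0.70, adjusted p = 0.0127; 0.118 after quantile normalization). Its beta partner ITGB2 and the leukocyte marker PTPRC had no listed transcript. ITGA7, an alpha chain of muscle laminin receptors, was listed at 0.846, 0.970 and 1.02 FPKM in LBH589 and at 0.0553, 0 and 0 FPKM in DMSO, and ITGA11, an alpha chain of collagen receptors, was at 0.529 ± 0.110 FPKM in LBH589 and 0.163 ± 0.0345 FPKM in DMSO (SD, n = 3 each). Both were below the tested level, with groups that did not overlap. Both were listed through their LBH589 means, since every listed transcript had a group mean of at least 0.5 FPKM. The lack of overlap is therefore not support for a rise.

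The rise of ITGA6 was accompanied by a change of its listed transcript. ITGA6 is known to make an A form and a B form, whose cytoplasmic tails differ through an alternative exon of 130 bases that ends the reading frame of the A form. The transcript without that exon (ENST00000409080.5_3, B form, coding for 1091 residues) was at 10.9, 10.1 and 8.73 FPKM in LBH589 and 0.4665, 1.38 and 0.7225 FPKM in DMSO. The transcript with it (ENST00000264107.11_3, A form, 1073 residues) was at 1.399, 1.14 and 1.147 FPKM in LBH589 and 3.91, 2.15 and 3.25 FPKM in DMSO. The B form was thus the higher in every LBH589 library and the A form in every DMSO library. Of the FPKM of both, the B form held 88.6, 89.9 and 88.4% in LBH589 and 10.65, 39.0 and 18.2% in DMSO (two-sided exact permutation p = 0.1, the smallest possible).

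In a fit over the 26943 named transcripts with a mean of at least 0.5 FPKM, chosen after the data were seen, the B form rose (log2 fold change 2.58, SE 0.25, adjusted p = 0.00253), as did 8.56% of all these transcripts. The A form was lower without passing (log2 fold change -0.86, SE 0.24, adjusted p = 0.0653; 7.32% of transcripts fell). A listed fragment of 853 bases, ENST00000416789.1_1, which holds no base of the exon, rose too (log2 fold change 1.45, adjusted p = 0.0114). Whether the fragment reaches past the place of the exon was not examined, so it is not assigned to a form. These full-length transcripts also differ in the length of their first and last exons, and the sources used here do not say how the authors' quantification divided fragments between transcripts. The coding ends are shown because they are where the forms part, 5′ to 3′ on the + strand of chromosome 2 in GRCh38 (GENCODE 29): 105 bases in the alternative exon at chr2:172501772-172501876 for the A form, and 159 bases in the last exon at chr2:172504091-172504249 for the B form, each up to the stop codon and all in lower case.
ITGA6 A form coding end: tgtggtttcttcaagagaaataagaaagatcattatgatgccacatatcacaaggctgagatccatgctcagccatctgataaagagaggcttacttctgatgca
ITGA6 B form coding end: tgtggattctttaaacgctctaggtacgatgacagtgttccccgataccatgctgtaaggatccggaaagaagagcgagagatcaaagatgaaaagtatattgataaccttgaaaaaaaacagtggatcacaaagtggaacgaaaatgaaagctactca

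**Figure D4:**
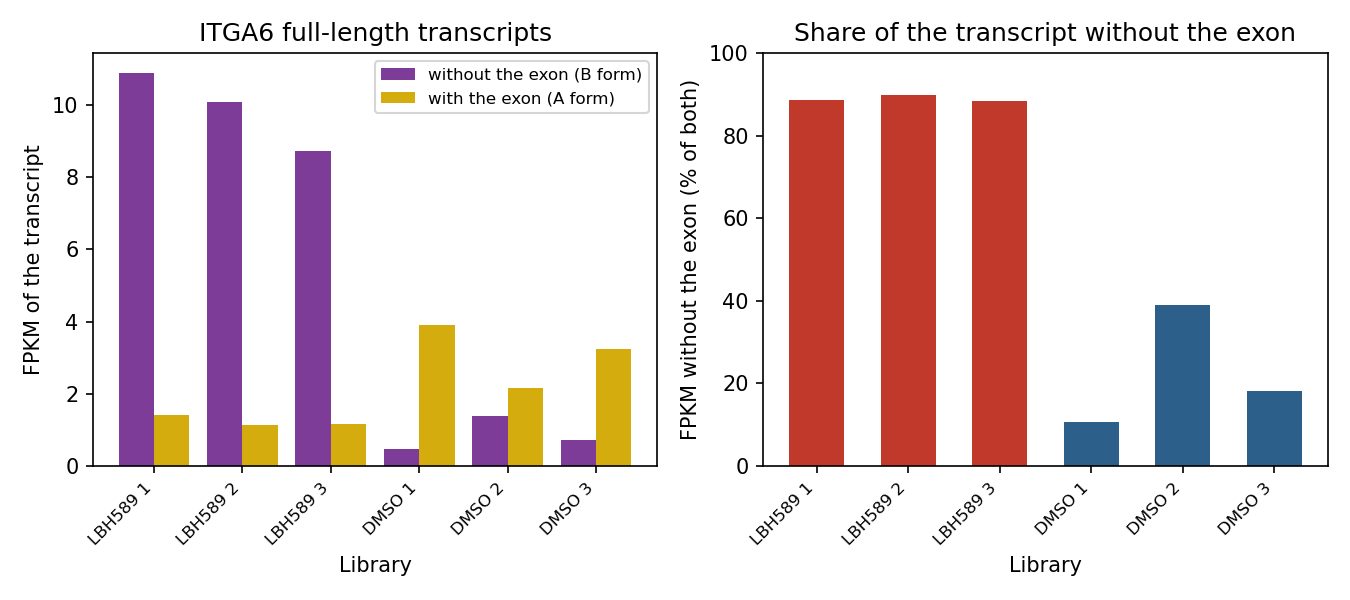
Left, FPKM of the ITGA6 transcripts without (B form) and with (A form) the alternative exon in each library; right, the B form as a percentage of the FPKM of both, with LBH589 libraries left of DMSO libraries. The B form holds 88.4 to 89.9% in LBH589 and 10.65 to 39.0% in DMSO.

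Matrix genes outside the 3 families included the members' ligands and partners. Of 24 tested basement membrane and matrix partners, 13 rose (54.2%; 27.2% of all tested genes) and 5 fell (20.8%; 21.6%), with a median log2 fold change of 0.63. Of the 13 rises, 3 (ECM1, EFEMP1 and MATN3) had a DMSO mean below 0.5 FPKM and could enter the test through LBH589 alone. When the most abundant transcript was used, 3 genes fell and 11 rose. Of all 11457 genes tested that way, 1753 fell and 2233 rose. FN1, fibronectin, the ligand of the ITGA5 receptor, reached 58.6 ± 6.42 FPKM in LBH589, against 4.91 ± 1.64 FPKM in DMSO (SD, n = 3 each; log2 fold change 3.37, adjusted p = 9.71e-05). CTGF and CYR61, secreted proteins that bind integrins and the matrix, rose to 135.1 ± 7.75 and 172.1 ± 12.4 FPKM in LBH589, against 0.855 ± 0.0995 and 4.90 ± 0.480 FPKM in DMSO. SPP1 (osteopontin, a ligand of ITGAV receptors) and FREM2, a basement membrane protein, rose as well, while MFAP2, a protein of elastic microfibrils, fell to 3.49 ± 0.243 FPKM in LBH589, against 18.1 ± 4.78 FPKM in DMSO. HSPG2, the perlecan of basement membranes, was at 1.49 FPKM in LBH589 and 2.08 FPKM in DMSO on average and did not pass.

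Genes that fold and cross-link collagen went both ways. Of 29 tested, 10 rose (34.5%) and 8 fell (27.6%), near the shares of all tested genes. Rises and falls numbered 10 and 5 with equal library sums (3730 and 2009 among all genes). With the most abundant transcript they numbered 8 and 4 (2233 and 1753 among all genes). Without LBH589 replicate 1 or 2 there were 5 falls, and 2 of the 10 rises (P4HA3 and P3H2) had a DMSO mean below 0.5 FPKM. P4HA1, a subunit of the enzyme that hydroxylates collagen prolines, reached 263 ± 8.11 FPKM in LBH589, against 38.0 ± 0.906 FPKM in DMSO (SD, n = 3 each; log2 fold change 2.76, adjusted p = 1.61e-05). PLOD2, a lysyl hydroxylase, was at 124.7 ± 16.9 FPKM in LBH589 and 24.1 ± 4.14 FPKM in DMSO and rose, as did LOXL2, a lysyl oxidase of cross-links (11.1 ± 0.454 and 1.885 ± 0.540 FPKM). SERPINH1, the chaperone of collagen in the endoplasmic reticulum, fell to 2.20 ± 0.464 FPKM in LBH589, against 28.9 ± 10.1 FPKM in DMSO (log2 fold change -3.19, adjusted p = 2.14e-04). FKBP10, a further collagen chaperone, and COLGALT2, which adds galactose to collagen, fell too.

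Integrin adaptors and focal adhesion genes were called at about the rate of all genes, 10 of 40 tested rising (25%) and 9 falling (22.5%). Of the 10 rises, 1 (PTK2B) had a DMSO mean below 0.5 FPKM and could enter the test through LBH589 alone. TES, an actin-associated protein of focal adhesions, reached 68.05 ± 4.20 FPKM in LBH589, against 6.77 ± 0.967 FPKM in DMSO (SD, n = 3 each; log2 fold change 3.16, adjusted p = 2.46e-05). NEDD9, a scaffold of focal adhesion signalling, was at 11.2, 11.1 and 12.7 FPKM in LBH589 and 0.128, 1.97 and 0.289 FPKM in DMSO, and FERMT2, a kindlin that activates integrins, rose as well. PARVA and PARVB, which link integrins to actin through ILK, fell to 4.195 ± 0.470 and 1.96 ± 0.0730 FPKM in LBH589, against 16.8 ± 1.93 and 8.58 ± 0.787 FPKM in DMSO, and SRC, a kinase of these sites, fell to 0.6415 ± 0.191 FPKM, against 5.125 ± 1.27 FPKM in DMSO. TLN1, the talin that binds integrin tails, and PTK2, the focal adhesion kinase, were not called.

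Other matrix receptors and integrin partners fell in 11 of 23 tested cases (47.8%; 21.6% of all tested genes), and 5 rose (21.7%; 27.2%). With the most abundant transcript 6 fell and 4 rose, while 1753 of all 11457 genes tested that way fell and 2233 rose. DDR2, a receptor kinase for fibrillar collagen, fell to 1.58 ± 0.384 FPKM in LBH589, against 18.45 ± 1.71 FPKM in DMSO (SD, n = 3 each; log2 fold change -2.92, adjusted p = 4.84e-05). CD44, a hyaluronan receptor, fell to 16.4 ± 2.07 FPKM, against 121.7 ± 12.2 FPKM in DMSO, and CD36, CD63 and ANTXR1, a receptor that binds collagen, fell with it. CD63, a tetraspanin that associates with integrins, is also abundant in melanosomes, and 6 of 8 melanocytic markers fell in the same libraries; their part in its fall was not tested. SDC2, a heparan sulfate proteoglycan, rose to 6.135 ± 0.807 FPKM in LBH589, against 0.150 ± 0.0254 FPKM in DMSO. Of the 5 rises, SDC2 alone had a DMSO mean below 0.5 FPKM and could enter the test through LBH589 alone.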

How the data were processed

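RNA sequencing of 3 LBH589 and 3 DMSO samples was analysed from the FPKM values per transcript that the authors deposited, 1 file per library, with the unit named per the file headers. Libraries were made with a TruSeq kit, per the labels' protocols. The submitters' processing notes name Bowtie 0.12.2 and hg19 without their roles; for quantifier, annotation and transcript filter: not given in the sources used here. Every one of the 30624 listed transcripts had a mean of at least 0.5 FPKM in a group. GENCODE 29 identifiers named 30504 (99.6%), and FPKM was summed per gene. That annotation is on GRCh38, so its positions belong to the printed sequences, not to the files.

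Genes that averaged 0.5 FPKM or more across the libraries were tested with limma 3.58.1 (R 4.3.3, statmod 1.5.0) on log2(FPKM + 1), with trend and robust moderation and treatment as the term; Benjamini-Hochberg adjusted p below 0.05 was called. The test was run on simulated data in which only better expressed genes were changed, so it does not cover members at low levels. Low values showed repeated steps in some libraries and not in others, so depth was not recovered and no counting interval can be given. No pair of libraries shared more than 1 equal value above 0. An exact 0 may be a failed estimate, so genes are described as listed at 0.

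Members and lists were chosen with earlier results of these data known. Values are printed for called members with a higher group mean of at least 2 FPKM (up to 12 a family) and the 3 highest of each family; in each further list up to 6 called genes with a higher mean of at least 5 FPKM were taken by the size of the change. Other members follow by group values; HSPG2, TLN1 and PTK2 were added after their values were seen. Alternatives were a pseudocount of 0.1, no filter, a minimum average of 5 FPKM, equal medians, quantile normalization, equal sums, limma without trend and robust moderation, the most abundant transcript, adjusted p below 0.01, a replicate block and leaving out each library. Chain ratios and the transcript fit were added after the data were seen.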

Additional observations from a re-analysis of the deposited data

How the results depend on the processing

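Of the 20 called members, 14 kept their call and direction under every alternative that tested them; the others were COL1A1, COL25A1, COL4A2, COL6A2, LAMB2 and ITGAX. Leaving out 1 library gave 8 to 13 rises and 7 to 10 falls among members, 2509 to 3277 and 2056 to 2406 among all genes, 10 to 14 and 4 to 6 among matrix partners, 9 to 11 and 5 to 7 among collagen synthesis genes, 8 to 12 and 9 to 9 among adaptors, and 4 to 6 and 8 to 11 among other receptors; the collagen synthesis falls were 5 without LBH589 replicate 1 or 2. A mean of at least 5 FPKM, which tests fewer genes, left 4 rises and 3 falls among 13 members, 1844 rises among all genes, 6 rises and 2 falls among matrix partners and 1 rise among other receptors. Adjusted p below 0.01 left 7 member rises and 2101 rises among all genes. Falls of collagen synthesis genes numbered 5 with equal sums, 4 with the most abundant transcript and 5 with the replicate block. With the most abundant transcript 3 matrix partners and 6 other receptors fell. Among all genes 2009 fell with equal sums, 1753 with the most abundant transcript and 2172 with the replicate block, against 2485 in the main fit. The cause was not tested.

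Directions reversed for members that were not called: COL15A1 (-0.02 with equal medians, -0.24 after quantile normalization, and -0.04, -0.01 and -0.04 without DMSO replicate 3, LBH589 replicate 2 and LBH589 replicate 3, with a range of -0.04 to 0.05 over the libraries left out), COL19A1 (-0.00 after quantile normalization), COL4A5 (-0.33), COL6A1 (-0.03), ITGAV (0.27) and ITGB1 (0.04) with the most abundant transcript, ITGB1 (0.12) and LAMA1 (0.01) with equal sums, and COL6A1 (-0.14; -0.14 to 0.22 over the libraries left out) and ITGB1 (0.05; -0.24 to 0.05) without DMSO replicate 3. Same-numbered libraries did not deviate together (correlations of -0.104, 0.021 and -0.035), so they share a number only. With the replicate block 11 members rose and 7 fell, against 2617 and 2172 among all genes. In that fit COL4A2 (adjusted p = 0.0674) and LAMB2 (0.0707) lost their calls. No depth is known, so low members cannot be given a counting limit.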

Other observations

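The split of some members between near-identical transcripts varied from library to library within a group. LAMB2 has 2 listed transcripts that differ outside the coding part: ENST00000305544.8_1 was at 0.572, 12.7 and 12.3 FPKM in LBH589 and 11.6, 0.394 and 0.148 FPKM in DMSO, and ENST00000418109.5_1 was high where it was low. For ITGB1, ENST00000396033.6_1 was at 0.313 to 0.434 FPKM in LBH589, at 35.4 FPKM in DMSO replicate 1 and below 1 FPKM in the other DMSO libraries. For COL4A5, ENST00000361603.6_2 was at 0.325, 4.59 and 4.32 FPKM in LBH589 and at most 0.129 FPKM in DMSO, where its group fit did not pass (adjusted p = 0.13). For COL6A2, ENST00000310645.9_1 was at 4.24, 7.02 and 20.5 FPKM in LBH589 and 1.98, 0.682 and 0.185 FPKM in DMSO.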
